A study of Mus musculus with 2 samples.

Results

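The collagen genes are the 44 genes, of 31053 in the deposited tables, whose symbol has the form Col, a number, a and a number. They were taken by symbol alone, and their levels were followed across cell clusters of the mouse embryo at E10.5 and E11.5, where E stands for days of embryonic life. They comprise 11 fibrillar collagens, 6 basement membrane collagens of type IV, and 27 others. The study profiled single cells by droplet sequencing of the 3′ ends of messenger RNA to examine precursors of blood stem cells. Per stage, 1 library was made from C57BL/6 embryos, for which the labels list no genetic change or treatment, and each library joined the dorsal aorta region with the liver. The number of embryos pooled is not given in the sources used here. With 1 library per stage there is no replicate, so no test was made, and every interval below is a 95% interval that covers counting error only.

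Collagens are secreted as trimers of alpha chains wound into a triple helix. Fibrillar collagens form the cables of connective tissue, type IV collagens form the sheet-like network of basement membranes under endothelium and epithelium, and the remaining families decorate fibrils, link them to membranes or build other networks. In the embryo at these stages, basement membranes underlie the vessels and epithelia, smooth muscle precursors gather around the aorta, and the sclerotome and notochord lay down the matrix that precedes cartilage.

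After filtering, 8009 cells remained from the E10.5 library and 8976 from the E11.5 library, with median totals of 15479 and 13131 unique molecular identifiers (UMIs) per cell. They fell into 40 clusters, of which 29 could be named by likeness to marker genes, and 25 clusters had over 90% of their cells from 1 library. Levels are given as counts per 1000000 UMIs (CPM), with haemoglobin and mitochondrial genes left out of the total, over the summed cells of a cluster in a library, for the 52 cluster and library sets with at least 30 cells. Each 3′ UMI stands for 1 transcript, so levels were not divided by gene length. Endothelial-like, hepatoblast-like and erythroid-like clusters were present in both libraries, the hepatoblast-like class with 83 cells in the E10.5 library and 288 in the other. Clusters 0 and 30 were shallow, with medians of 1650 and 2177 UMIs. Before filtering, the libraries shared 37 cell barcodes, and after it 20. Because stage, library and dissection came together, they cannot be told apart in any comparison of E10.5 with E11.5.

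Sequences upstream of 3 chain genes are shown, those of the head to head pair Col4a1 and Col4a2 and that of Col1a2. The part of these sequences in the levels of the genes was not tested. The sequences are from RefSeq on GRCm38.p6 and run from 250 bases before to 50 bases after the annotated start, read along each gene's own strand. Capitals mark CCAAT (the CCAAT box), GGGCGG (the GC box) and TATAAA (the TATA box) on either strand. The Col4a1 window is chr8:11312777-11313076 on the minus strand, the Col4a2 window is chr8:11312555-11312854 on the plus strand, and the Col1a2 window is chr6:4505368-4505667 on the plus strand. The Col1a2 window lies inside the GENCODE span of the gene, which begins at chr6:4504814, so its RefSeq and GENCODE starts differ. No window was matched for Col1a1.
Col4a1: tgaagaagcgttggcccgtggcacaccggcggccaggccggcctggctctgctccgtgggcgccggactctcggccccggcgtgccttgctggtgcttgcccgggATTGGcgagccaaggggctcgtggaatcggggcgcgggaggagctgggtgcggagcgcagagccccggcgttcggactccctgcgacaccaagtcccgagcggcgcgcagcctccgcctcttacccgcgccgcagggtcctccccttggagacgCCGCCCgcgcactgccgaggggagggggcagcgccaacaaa
Col4a2: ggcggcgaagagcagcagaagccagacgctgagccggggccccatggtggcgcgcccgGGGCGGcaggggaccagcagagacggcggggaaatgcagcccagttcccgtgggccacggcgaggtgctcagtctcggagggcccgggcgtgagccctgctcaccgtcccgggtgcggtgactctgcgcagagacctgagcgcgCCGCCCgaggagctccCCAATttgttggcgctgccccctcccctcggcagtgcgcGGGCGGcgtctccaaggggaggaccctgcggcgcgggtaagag
Col1a2: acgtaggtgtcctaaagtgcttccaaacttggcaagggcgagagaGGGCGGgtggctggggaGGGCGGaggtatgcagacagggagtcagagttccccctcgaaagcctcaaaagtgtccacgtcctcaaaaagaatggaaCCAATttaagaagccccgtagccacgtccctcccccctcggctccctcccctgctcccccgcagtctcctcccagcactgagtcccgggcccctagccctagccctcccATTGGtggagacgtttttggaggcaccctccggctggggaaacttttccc

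Col4a1 (chr8:11198423-11312826) and Col4a2 (chr8:11312805-11449287) encode the alpha chains of the most widespread type IV trimer and lie head to head, with 21 bases between their annotated starts. Their promoter windows overlapped by 78 bases, and the shared stretch held 1 GC box at chr8:11312812-11312817, which was read as GGGCGG in the Col4a2 line and as its reverse complement in the Col4a1 line. Promoter windows were matched for 35 of the 44 collagen genes, in 38 windows. A GC box was in 60.5% of them and in 35.7% of the 32851 windows counted over all genes, for which 1 chromosome was left out. A CCAAT box was in 34.2% against 37.4%, and a TATA box in 13.2% against 13.6%. These are matches of letters, and binding was not measured.

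Collagen made up 1374 CPM of the E10.5 library and 2101 CPM of the E11.5 library, a log2 ratio of 0.61 (0.60 to 0.62). The fibrillar class was 788 CPM at E10.5 and 1402 at E11.5, type IV was 214 and 243, and the others were 372 and 456. The fibrillar class thus held most of the difference between libraries. Of 41 members with at least 20 UMIs over both libraries, 18 were at least 2-fold higher at E11.5, where 16.1% of all genes were, and 6 were at least 2-fold lower, where 4.49% were. The median log2 ratio of those members was 0.94, and of all genes 0.16. Levels in whole libraries also follow which cells were captured, and more cells of a kind and more RNA per cell cannot be told apart in them.

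**Figure D1:**
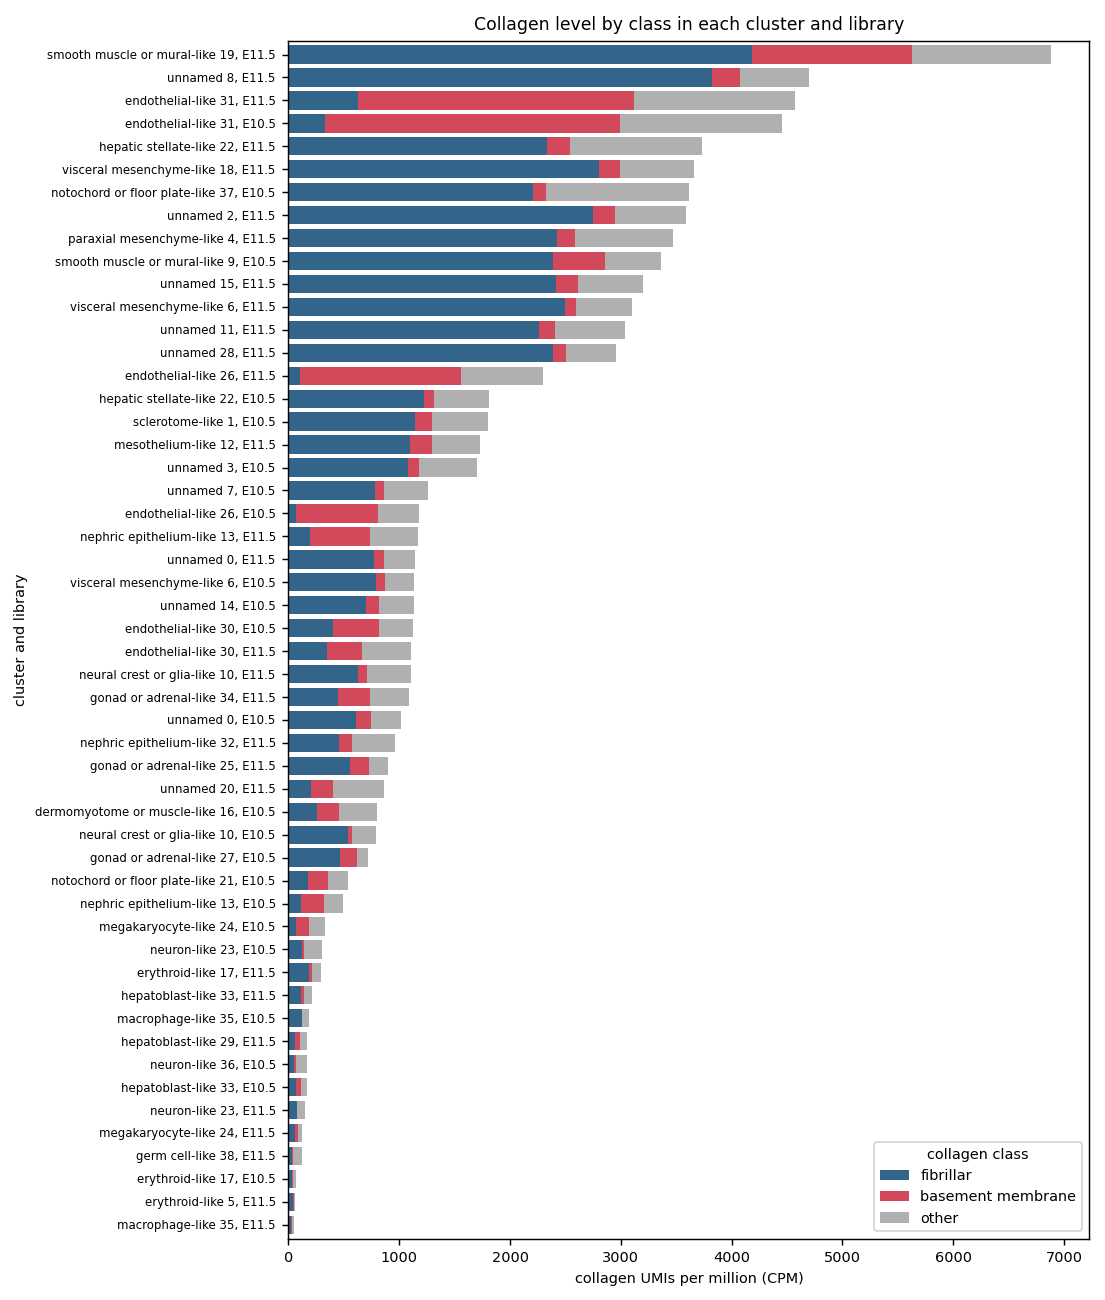
Summed collagen level (CPM, horizontal axis) of each cluster and library with at least 30 cells, split into fibrillar, basement membrane and other collagens by colour. Smooth muscle or mural-like cluster 19 at E11.5 has the longest bar at 6886 CPM, and endothelial-like cluster 31 is the one in which the basement membrane part is longest.

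Across clusters the total spanned from 50.8 CPM in macrophage-like cluster 35 at E11.5 to 6886 CPM in smooth muscle or mural-like cluster 19 at E11.5. Blood-like, neuron-like and hepatoblast-like clusters lay at the low end. Mesenchymal clusters were mostly fibrillar: unnamed cluster 8, led by Sfrp2 and Postn, had 3827 CPM of fibrillar and 245 CPM of type IV collagen. Endothelial-like clusters 26 and 31 were the reverse, while in the shallow endothelial-like cluster 30 the type IV and fibrillar sums were 414 and 401 CPM at E10.5 and 311 and 351 CPM at E11.5. Cluster 31, whose leading genes Gja4, Gja5 and Vwf are known from arterial endothelium, had 2666 CPM of type IV and 330 CPM of fibrillar collagen at E10.5. Over the 52 sets the fibrillar and type IV sums had a Spearman correlation of 0.43, given as a description, since the sets share 2 libraries and differ in depth.

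**Figure D2:**
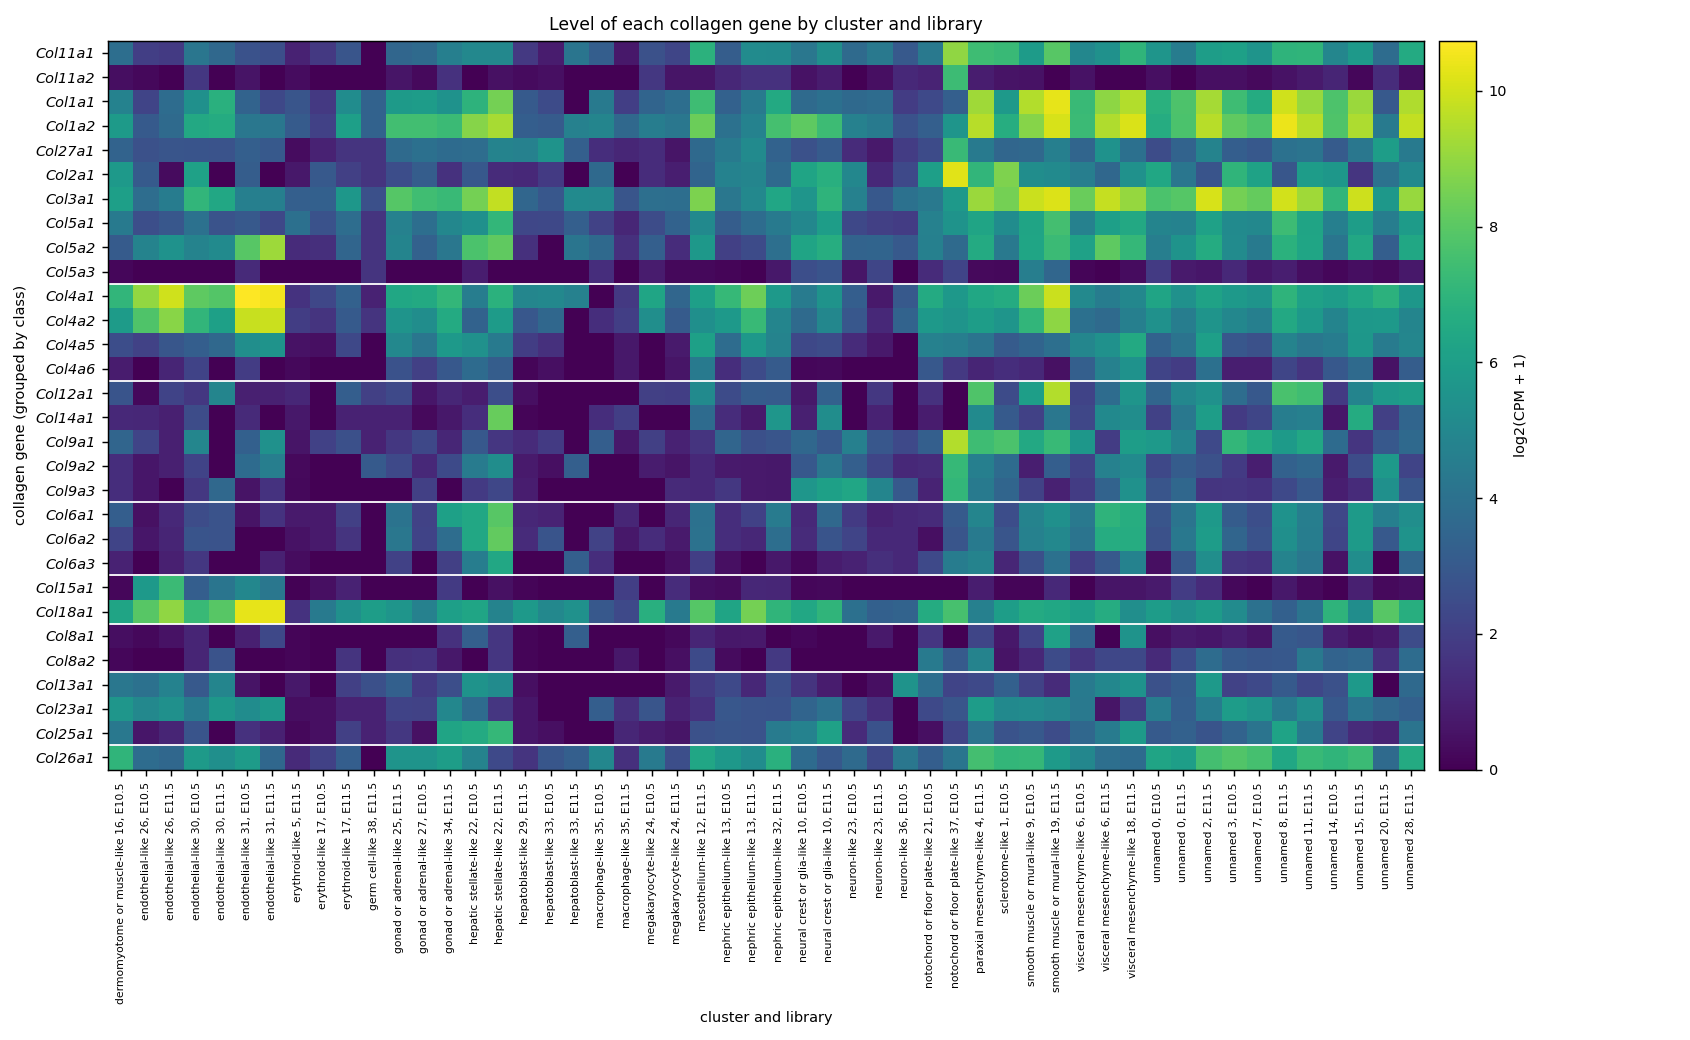
Level of the 30 collagen genes that reached 20 CPM in at least 1 set, as log2(CPM + 1) by colour, in each cluster and library. Col4a1, Col4a2 and Col18a1 are brightest in endothelial-like cluster 31, Col2a1, Col9a1 and Col11a1 in notochord or floor plate-like cluster 37, and Col1a1, Col1a2 and Col3a1 across mesenchymal clusters.

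Type I and type III collagens were the most abundant fibrillar chains. Col1a1 (chr11:94936224-94953042), the alpha 1 chain of type I collagen, was highest in smooth muscle or mural-like cluster 19 at 1303 CPM (1273 to 1335), and next in unnamed cluster 8 at 987 CPM (963 to 1011). Col1a2 (chr6:4504814-4541544), its partner chain, was highest in cluster 8 at 1382 CPM (1354 to 1410), followed by visceral mesenchyme-like cluster 18 at 1126 CPM (1092 to 1160). Col3a1 (chr1:45311538-45349706), the chain of the type III homotrimer of elastic and vascular tissue, was at 1139 CPM (1110 to 1168) in cluster 19 and 1093 CPM (1071 to 1115) in unnamed cluster 2. The intervals of those top 2 levels of Col3a1 overlapped. Col5a1, a type V chain that takes part in starting fibrils, was at 184 CPM (172 to 196) in cluster 19 and 163 CPM (153 to 173) in cluster 8. All of these highest levels were at E11.5.

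Type I collagen is built from the products of Col1a1 and Col1a2, and in 1 cluster these were far apart. In neural crest or glia-like cluster 10 at E10.5, Col1a2 stood at 266 CPM (254 to 279) and Col1a1 at 12.0 CPM, a ratio of 22.1 (17.7 to 28.0). At E11.5 in the same cluster the levels were 163 and 14.6 CPM, a ratio of 11.2 (8.88 to 14.3). Over the 35 sets with enough UMIs of the pair the median ratio was 1.55. The highest outside cluster 10 was 3.67 (2.80 to 4.86), in gonad or adrenal-like cluster 34, and the lowest was 0.60 (0.58 to 0.63), in smooth muscle or mural-like cluster 9.

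The same difference was seen cell by cell. At E10.5 a Col1a2 UMI was found in 88.0% (83.8 to 91.4, exact Clopper-Pearson) of the 307 cells of cluster 10 and a Col1a1 UMI in 4.24% (2.27 to 7.13), at a median of 20371 UMIs per cell. In erythroid-like cluster 17 of the same library, with a median of 31200 UMIs that was 47.7% globin, the shares were 4.30% for Col1a2 and 3.76% for Col1a1. The Col1a1 share of cluster 10 was thus near that of red cells, which should lack the gene. The Col1a2 share of cluster 10 was far above that of red cells. After thinning to 5000 UMIs, Col1a2 was in 63.2% of cells and Col1a1 in 1.39%. Of the 80 Col1a1 UMIs in cluster 10 at E10.5, 70 came from 3 cells, whereas the 7 in cluster 17 came from 7 cells. Whether the Col1a1 UMIs of cluster 10 are background was not tested. All 11 neural crest markers were at 20 CPM or more in that set. With barcodes marked as doublets kept, the log2 ratio fell from 4.47 to 2.91, and with cells gated on marker UMIs it was 7.85.

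**Figure D3:**
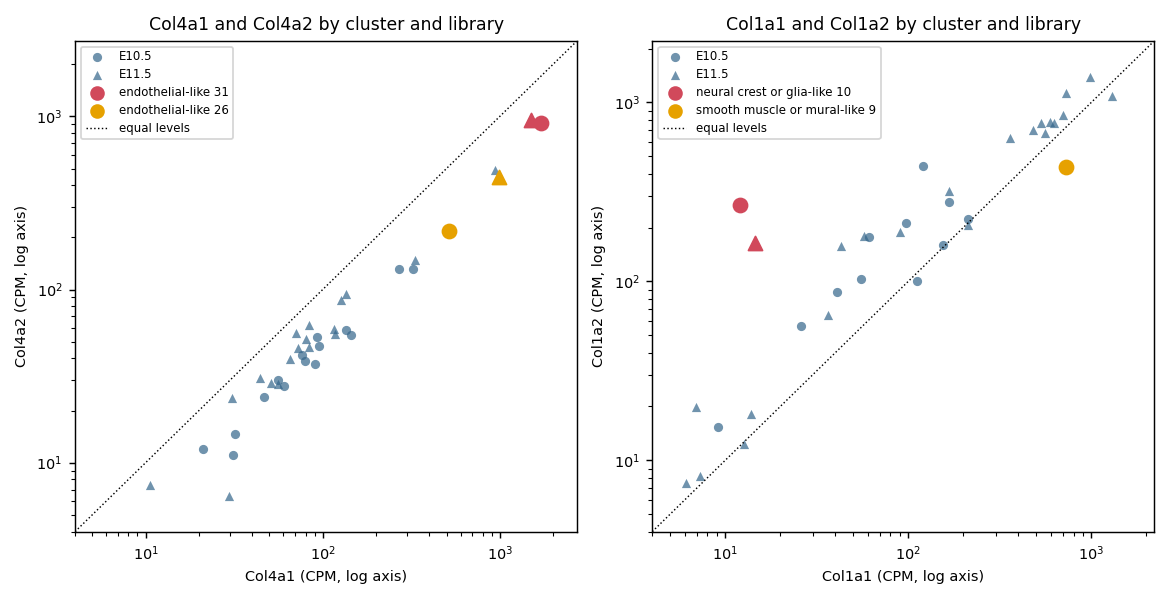
Levels (CPM, log axes) of Col4a1 and Col4a2 (left) and of Col1a1 and Col1a2 (right), 1 point per cluster and library with at least 100 UMIs of the pair, circles for E10.5 and triangles for E11.5. Type IV chains follow 1 line, whereas neural crest or glia-like cluster 10 lies far above the dotted line of equal levels for the type I chains.

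Col5a2 (chr1:45374321-45503282), the other type V chain, was set apart from its partner in endothelium. It was highest in endothelial-like cluster 31 at E11.5, at 570 CPM (524 to 619), and next in hepatic stellate-like cluster 22 at E11.5, at 280 CPM (260 to 301). Col5a1 in cluster 31 was at 6.99 CPM at E10.5 and 4.01 CPM at E11.5, from 15 and 4 UMIs. The ratio of Col5a2 to Col5a1 there was 35.3 (21.2 to 63.6) at E10.5 and 142 (55.2 to 523) at E11.5, against a median of 1.29 over 32 sets. Col3a1, which lies tail to tail with Col5a2 at a distance of 24614 bases, was at 23.8 and 24.1 CPM in the same cells. The second endothelial-like cluster, 26, led by Emcn, Plvap and Kdr, had Col5a2 at 26.9 and 43.2 CPM. Of the smooth muscle or mural markers, 4 of 12 reached 20 CPM in cluster 31 at each stage and their sum was 494 CPM at E10.5 and 229 CPM at E11.5, whereas in cluster 19 it was 16680 CPM. The part of such cells in the Col5a2 level was not tested.

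A group of fibrillar and fibril-associated genes known from cartilage was highest in notochord or floor plate-like cluster 37, led by Car3, Shh, T and Krt8. This set holds 48 cells of the E10.5 library, under the 50 cells that the rule for named genes asks for, and was chosen for description after its values were seen. Col2a1 (chr15:97975602-98004695), the main fibrillar chain of cartilage, was at 1214 CPM (1140 to 1291). Col9a1, a fibril-associated chain that coats type II fibrils, was at 733 CPM (676 to 794), and Col11a1, a fibrillar chain that nucleates them, at 499 CPM (452 to 549). Col11a2 stood at 163 CPM (137 to 193) in this cluster and at 2.34 CPM (0.28 to 8.45) in the set next below, the shallow cluster 30 at E10.5. Col27a1, Col9a2 and Col9a3 were at 156, 144 and 136 CPM. Together the 7 genes made up 84.3% of the collagen UMIs of the cluster. In sclerotome-like cluster 1 at E10.5, the precursor of the vertebrae, the same 7 made up 44.4%, with Col2a1 at 403 CPM (395 to 412), Col9a1 at 206 CPM (200 to 212) and Col11a1 at 156 CPM. Neuron-like cluster 23, with collagen totals of 300.1 and 154 CPM, had a share of 53.3% at E10.5 and 39.2% at E11.5, from 160 and 60.1 CPM of the 7 genes. The other notochord or floor plate-like cluster, 21, led by Fabp7, Shh and Sox2, had 19.3% and 103 CPM. Sox9, a direct activator of Col2a1, was also highest in cluster 37, at 681 CPM. Sox5, another activator of cartilage collagens, was instead highest in neural crest or glia-like cluster 10 at E11.5, at 102 CPM.

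Col4a1 and Col18a1 reached 20 CPM in more sets than any other member, 42 of 52 each, followed by Col3a1 in 39, Col1a2 in 37 and Col4a2 in 35. Col4a1 was highest in endothelial-like cluster 31 at E10.5, at 1709 CPM (1654 to 1766), then in endothelial-like cluster 26 at E11.5, at 993 CPM (964 to 1023). Col4a2 was at 915 CPM in cluster 31 at E10.5 and at 947 CPM (888 to 1010) at E11.5. Among non-endothelial sets, smooth muscle or mural-like cluster 19 had the highest Col4a2, at 488 CPM (470 to 508). The ratio of Col4a2 to Col4a1 ran from 0.22 in hepatoblast-like cluster 29 to 0.79 in unnamed cluster 11, with a median of 0.52 over 37 sets. Their Spearman correlation over the 52 sets was 0.97, and that of Col1a1 and Col1a2 was 0.93. Both describe sets that share libraries and depth.

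The minor type IV chains had other sites. Col4a5 and Col4a6, which join in a trimer of smooth muscle and epithelial basement membranes, were highest in visceral mesenchyme-like cluster 18 at E11.5, at 90.8 CPM (81.5 to 101) and 43.3 CPM (36.9 to 50.4). Col4a5 reached 20 CPM in 19 sets and Col4a6 in 3. They lie head to head on chromosome X with 1309 bases between starts. Their Spearman correlation over the 52 sets was 0.83, and the ratio of Col4a6 to Col4a5 ran from 0.07 to 0.60 over 17 sets. Col4a3 and Col4a4, the chains of the mature kidney filter and lung, also lie head to head, 72 bases apart, and stayed low: their highest levels were 1.09 CPM and 3.87 CPM.

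The multiplexins Col18a1 and Col15a1 are basement membrane zone collagens whose ends are released as endostatin-like fragments. Col18a1 (chr10:77052178-77166548) was at 1309 CPM (1261 to 1358) in endothelial-like cluster 31 at E10.5 and at 1298 CPM at E11.5, with a UMI in all of its 132 cells at the earlier stage, at a median of 13382.5 UMIs per cell. In erythroid-like cluster 17 at E10.5 it was at 19.7 CPM, with a UMI in 28.0% of cells. Col15a1 (chr4:47208161-47313167) had the opposite order of the 2 endothelial clusters. It was at 161 CPM (149 to 173) in cluster 26 at E11.5 and at 55.4 CPM at E10.5, against 30.8 CPM (23.8 to 39.1) and 18.1 CPM in cluster 31. Outside endothelial-like sets it did not reach 20 CPM. Col18a1, Col15a1, Col12a1 and Col14a1 each overlap a gene on the opposite strand, such as Slc19a1 for Col18a1, and whether strand was used in counting is not given in the sources used here.

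Of the fibril-associated members that reached 100 CPM, 2 were not highest in the notochord-like cluster 37. Col12a1 (chr9:79598991-79718831), which binds fibril surfaces in stretched tissue, was at 722 CPM (699 to 746) in smooth muscle or mural-like cluster 19, and next at 219 CPM (210 to 229) in paraxial mesenchyme-like cluster 4. Col14a1 (chr15:55307750-55520803), a related fibril-associated chain, was at 301 CPM (281 to 323) in hepatic stellate-like cluster 22 at E11.5 and at 95.8 CPM (88.4 to 104) in unnamed cluster 15. Cluster 22 is led by Colec11, Lhx2 and Colec10, genes of the liver's stellate cells, the mesenchymal cells beside its sinusoids. It also had the highest levels of the type VI chains Col6a2, Col6a1 and Col6a3, at 281, 245 and 85.0 CPM. Type VI collagen forms beaded filaments around cells. Col6a1 and Col6a2 were close to parity, with a median ratio of 1.00 over 20 sets, but in gonad or adrenal-like cluster 34 the ratio of Col6a2 to Col6a1 was 0.20 (0.12 to 0.32). Col25a1, a transmembrane collagen, was also highest in cluster 22, at 141 CPM (127 to 156).

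Col26a1, a short secreted collagen, was widespread, at 20 CPM or more in 29 sets and at 103 CPM in the whole E10.5 library. It was highest in unnamed cluster 3 at E10.5, at 226 CPM (217 to 234), and next in unnamed cluster 7, at 189 CPM (181 to 196). The remaining members did not reach 100 CPM in any set. Col8a1, a short-chain network collagen of vessel walls, was highest in cluster 19 at 70.2 CPM (63.2 to 77.8), and Col8a2 in paraxial mesenchyme-like cluster 4 at 26.6 CPM. The transmembrane collagens Col23a1 and Col13a1 were at most 60.7 and 55.1 CPM. Col5a3, another type V chain, was at 23.2 CPM (20.2 to 26.5) in smooth muscle or mural-like cluster 9. Col19a1 was at 12.2 CPM (9.71 to 15.2) in dermomyotome or muscle-like cluster 16 and 0.61 CPM in the next set, and Col20a1 at 7.10 CPM (5.03 to 9.75) in cluster 10 at E11.5. Col22a1, Col7a1, Col16a1, Col17a1, Col6a6, Col24a1 and Col28a1 had highest levels between 1.24 and 13.2 CPM. Col10a1, Col6a5 and Col6a4 had fewer than 20 UMIs over both libraries.

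Between stages, 14 of 30 collagen genes were at least 2-fold higher at E11.5 in smooth muscle or mural-like cells, where 7.66% of all genes were. A further 5 were at least 2-fold lower, where 5.51% were. The fibrillar sum was 2387 and 4195 CPM (log2 ratio 0.81). The class was cluster 9 (599 cells) at E10.5 and cluster 19 at E11.5, so the 2 stages come from different clusters. Col12a1 went from 64.6 CPM at E10.5 to 720 CPM at E11.5, a log2 ratio of 3.48 (3.35 to 3.60). Col8a1 had 3.50 and 70.0 CPM, a log2 ratio of 4.32 (3.81 to 4.88). Col11a1 had 58.2 and 244 CPM (log2 ratio 2.07, 1.93 to 2.22), and Col4a2 131 and 488 CPM (1.89, 1.79 to 1.99). Col26a1, at 141 and 56.6 CPM, and Col5a3, at 23.2 and 10.7 CPM, were lower, with log2 ratios of -1.32 and -1.12. Of the 12 smooth muscle markers, 9 reached 20 CPM in cluster 9 and 11 in cluster 19, with sums of 10160 and 16680 CPM, and the part of this difference in the ratios was not tested. With cells gated one by one on marker UMIs in place of clusters, the log2 ratio of Col12a1 was 2.45, and with at most 5% mitochondrial UMIs that of Col26a1 was -1.97.

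**Figure D4:**
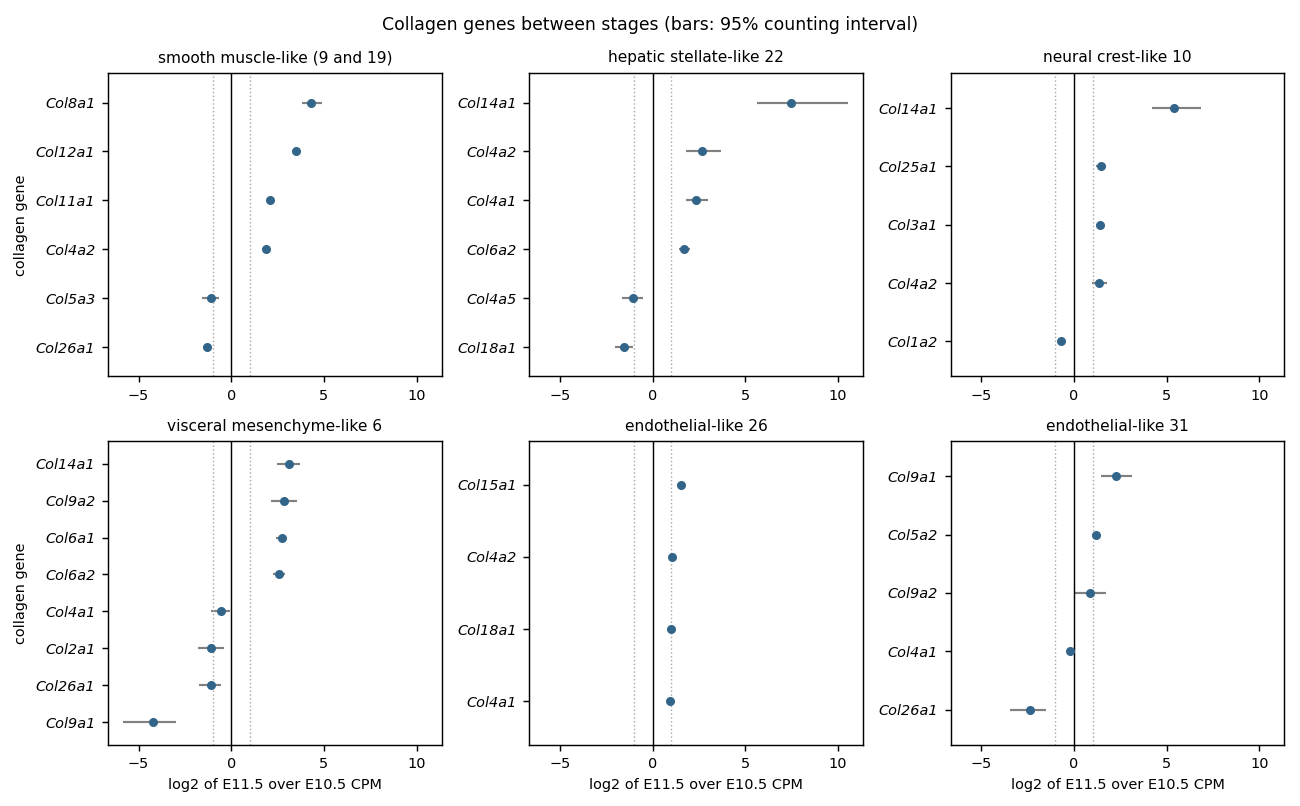
Log2 ratio of E11.5 over E10.5 level (horizontal axis) of the collagen genes named by the rule in 6 classes or clusters, with 95% counting intervals as bars and dotted lines at 2-fold. Col14a1 has the highest ratio in the hepatic stellate-like, neural crest-like and visceral mesenchyme-like panels.

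In hepatic stellate-like cluster 22, 10 of 23 collagen genes were at least 2-fold higher at E11.5 (5.4% of all genes) and 4 at least 2-fold lower (4.5%). The fibrillar sum was 1226 and 2337 CPM (log2 ratio 0.93). Col14a1 had 2 UMIs in 98 cells at E10.5 and 790 UMIs in 187 cells at E11.5, 1.68 against 301 CPM. The log2 ratio was 7.49 (5.63 to 10.53). Col4a2 and Col4a1 had log2 ratios of 2.68 (1.80 to 3.71) and 2.36 (1.79 to 2.98), from 9.24 to 59.1 CPM and from 22.7 to 116 CPM. Col6a2 was at 85.7 and 281 CPM (log2 ratio 1.71). Col18a1, at 79.0 and 27.1 CPM, and Col4a5, at 42.0 and 19.8 CPM, were lower (log2 ratios -1.55 and -1.08). At a coarser clustering that merged this cluster with others (Leiden resolution 0.5), 17 members were at least 2-fold higher, the log2 ratio of Col18a1 turned to 0.34, that of Col14a1 was 5.18 and that of Col4a2 was 1.37, and with cells gated on marker UMIs that of Col4a2 was 3.93. It was 1.79 in cells thinned to 5000 UMIs. The endothelial markers summed to 307 CPM at E10.5 and 430 CPM at E11.5 in this cluster, with Tie1, Esam and Erg at 0 at both stages, and their part in the type IV levels was not tested.

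The 2 endothelial-like clusters of full depth differed in the members that were higher at E11.5. In cluster 26, 3 of 17 collagen genes were at least 2-fold higher (6.04% of all genes) and 2 at least 2-fold lower (2.06%). Col15a1 had a log2 ratio of 1.54 (1.34 to 1.74), Col4a2 of 1.04 (0.94 to 1.15), Col18a1 of 0.98 (0.88 to 1.08) and Col4a1 of 0.94 (0.87 to 1.01). In cluster 31, 2 of 14 were at least 2-fold higher (4.0%) and 2 at least 2-fold lower (4.09%). There Col4a1 was at 1709 and 1494 CPM (log2 ratio -0.19, -0.28 to -0.11), while Col5a2 was at 247 and 570 CPM (1.21, 1.03 to 1.38), Col9a1 at 8.85 and 42.1 CPM (2.25) and Col26a1 at 57.8 and 11.04 CPM (-2.39, -3.43 to -1.50). Whether the stage ratios differ between the clusters was not tested. The type IV sum of all endothelial-like cells was 0.41 higher on the log2 scale at E11.5, but -0.15 when each cell's CPM was averaged in place of the summed UMIs.

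In neural crest or glia-like cluster 10, 12 of 24 collagen genes were at least 2-fold higher at E11.5 (6.44% of all genes) and 0 at least 2-fold lower (3.84%). With barcodes marked as doublets kept, 7 were higher. Col14a1 went from 6 to 200 UMIs, 0.90 and 37.4 CPM, a log2 ratio of 5.37 (4.22 to 6.84), which was 4.58 in cells thinned to 5000 UMIs and 4.69 as a mean over cells. Col25a1 was at 25.9 and 70.3 CPM (1.44) and Col3a1 at 47.4 and 127 CPM (1.42, 1.23 to 1.62). Col1a2 had the opposite direction, at 266 and 163 CPM (-0.71, -0.82 to -0.59).

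In visceral mesenchyme-like cluster 6, of 562 cells at the earlier and 99 at the later stage, 14 of 28 collagen genes were at least 2-fold higher (6.49% of all genes) and 6 at least 2-fold lower (6.61%). Col14a1 had 3.93 and 33.7 CPM, with an interval of the log2 ratio from 2.49 to 3.73, Col6a1 19.1 and 126 CPM (2.72) and Col6a2 16.8 and 99.6 CPM (2.57). Col9a1 was at 50.2 and 2.72 CPM (-4.21, -5.83 to -2.97), the latter from 5 UMIs. With cluster 18, whose 332 cells are all from E11.5, the whole visceral mesenchyme-like class had Col9a1 at 50.2 and 42.5 CPM (-0.24, -0.47 to -0.01), so the low value is that of cluster 6 alone. In the class 19 of 29 members were at least 2-fold higher (10.6%) and 2 at least 2-fold lower (2.99%). Its fibrillar sum was 786 and 2700 CPM (1.78), and its Col14a1, Col6a1 and Col6a2 log2 ratios were 3.19, 2.51 and 2.57. In cluster 6, of the 12 markers of this class, Foxf2, Nkx2-3, Nkx2-5 and Nkx3-2 were at 0 at E11.5 and none were at E10.5. The markers summed to 925 CPM at E10.5 and 1674 CPM at E11.5 in that cluster. In cluster 18 at E11.5, Nkx2-5 and Nkx3-2 were at 0. The part of these differences in the ratios was not tested. In neuron-like cluster 23, 0 of 11 collagen genes were at least 2-fold higher (12.3%) and 6 at least 2-fold lower (4.87%), with Col9a3 at 82.0 and 28.2 CPM (-1.54). Nephric epithelium-like cluster 13 had 7 of 20 at least 2-fold higher (13.5%), and 2 at least 2-fold lower (5.71%), led by Col18a1, at 75.9 and 359 CPM (2.24, 2.08 to 2.41). In gonad or adrenal-like cells 11 of 24 were at least 2-fold higher (9.94%) and 2 at least 2-fold lower (3.35%). All 254 cells of the E10.5 library in this class were in cluster 27, and of the 392 at E11.5 only 4 were, the others being in clusters 25 and 34, so the stages come from different clusters. Col25a1 had 2 UMIs in that class at the earlier stage and 131 at the later one, a log2 ratio of 5.96 (4.08 to 9.03).

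Collagen chains are hydroxylated, folded, trimmed, cross-linked and degraded by other proteins, and 10 lists of such genes were followed. Serpinh1, the collagen-specific chaperone HSP47, was highest in smooth muscle or mural-like cluster 9 at 1456 CPM. Over the 52 sets its level had a Spearman correlation of 0.82 with the fibrillar sum and 0.63 with the type IV sum. The lysyl oxidase Loxl2, with 0.86, the lysyl hydroxylase Plod2, with 0.84, and the procollagen enhancer Pcolce, with 0.81, also tracked the fibrillar sum. P4hb, a subunit of prolyl hydroxylase that also serves other secreted proteins, had 0.38. P4ha1 of the same list had 0.39, Ppib of the list of Serpinh1 0.40, and Colgalt1 of the list of Plod2 0.20. The other partner genes, the 2 most abundant of each list, lay between 0.55 for Sox5 and 0.81 for Bgn. Sparc, a basement membrane binding protein, had 0.74 with the type IV sum and 0.70 with the fibrillar sum. It was highest in endothelial-like cluster 31 at 3299 CPM. These correlations describe sets that share 2 libraries and their depths. In smooth muscle or mural-like cells between stages, 10 of 12 other basement membrane genes and 3 of 6 cross-linking genes were at least 2-fold higher at E11.5 and 0 of either lower, where 7.66% of all genes were higher and 5.51% lower. Their median log2 ratios were 1.30 and 1.10, and that of all genes was -0.01. Of the other lists there, 3 of 5 receptor, 1 of 5 propeptide cleavage and 1 of 9 prolyl hydroxylation genes were at least 2-fold higher. So were 0 of 4 lysyl hydroxylation, 0 of 8 folding and export and 0 of 5 degradation genes. No gene of these lists was at least 2-fold lower. Of 4 fibril-binding proteoglycans 2 were higher and 2 lower, and of 3 cartilage collagen activators 0 were higher and 1 lower. In endothelial-like cluster 26, 4 of 11 genes of the basement membrane list were at least 2-fold higher (6.04% of all genes) and 1 at least 2-fold lower (2.06%), with a median log2 ratio of 0.74. In cluster 31, 0 of 10 were at least 2-fold higher (4.0%) and 1 at least 2-fold lower (4.09%), with a median of 0.05.

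**Figure D5:**
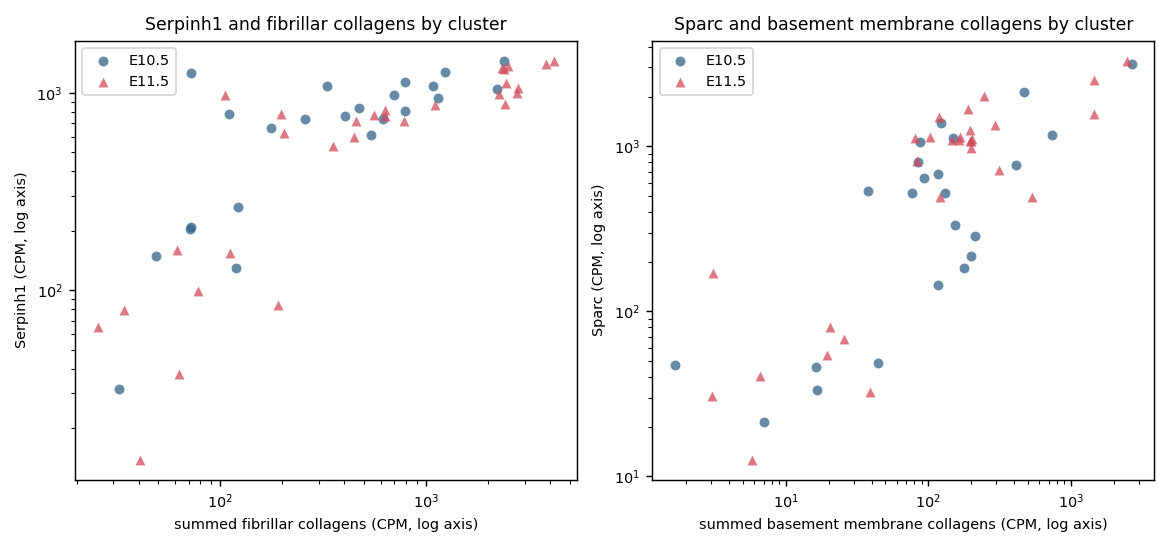
Level of Serpinh1 against the summed fibrillar collagens (left) and of Sparc against the summed basement membrane collagens (right), in CPM on log axes, 1 point per cluster and library, coloured by stage. Both partners are lowest in the sets with the least collagen, and the Spearman correlations are 0.82 and 0.74.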

How the data were processed

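The deposited tables hold UMI counts per gene and cell barcode, whole numbers per the file headers, made by the authors with Cell Ranger 5.0.0 on mm10 (GRCm38), per the submitters' processing notes. Cells had been dissociated with enzymes and prepared with the droplet 3′ kit, per the labels' protocols. The filter asked for 1000 UMIs and 500 genes or more, and for a mitochondrial share of 10% or less, which passed 8705 of 10996 at E10.5 and 9756 of 12289 at E11.5, from 151474708 and 159619785 UMIs. Scrublet's own threshold marked 0 doublets, and the top 8% of its scores were removed instead (696 and 780 cells). Both libraries were clustered together without collagen, haemoglobin, mitochondrial and sex-specific (Xist and Y-linked) genes in scanpy 1.11.5, on 2000 variable genes per library, 40 components, 15 neighbours and Leiden resolution 1.0. A cluster was named when at least 3 markers of a list were at least 3-fold above the rest and at 20 CPM, with a pseudocount of 20, unless its 10 leading genes pointed to another list.

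UMIs were summed per cluster and library. CPM intervals are exact Poisson, shares exact Clopper-Pearson and ratios exact conditional intervals, at 95%. The Poisson and ratio intervals were run only on simulated Poisson counts, which hold no extra spread between cells. Their coverage in these data was not tested, and the intervals of shares were not simulated. UMIs amplified from 1 molecule count once, but free RNA is not removed. Stage ratios set E11.5 over E10.5, on the log2 scale, in clusters or classes with at least 50 cells per library, over genes with at least 20 UMIs. In counts and medians over genes, a gene at 0 in 1 library was set to 3 UMIs there; no single ratio is given for such a gene. Full levels are given for members reaching 100 CPM in a set of at least 50 cells. Between stages, members with at least 50 UMIs and 20 CPM are named by the interval bound nearest to 0, up to 4 each way. Partner genes are the 2 most abundant of each list. No test, set test or correction was applied.

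Members, lists, thresholds and pairs of chains were chosen with earlier results of these data known. The minimum of 30 cells for a described set, the pairs of chains, the set of 7 cartilage genes, the description of cluster 37 the results followed under alternatives, the definition of the marker gate and the limits for results singled out below (20 CPM, a median of 5000 UMIs per cell and the whole interval past 2-fold) were chosen after values were viewed. As alternatives, the filter was raised to 2000 UMIs, the mitochondrial limit was lowered to 5%, and doublets were kept. Further ones were CPM over all genes, Leiden resolutions 0.5 and 2.0, collagen genes kept in the clustering, cells gated on marker UMIs (at least 3 markers detected and 2 more than for any other list), the mean over cells, a minimum of 100 UMIs per member and thinning to 5000 UMIs. Thinning of stage ratios was added after seeing the data. Positions are from GENCODE for GRCm38.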

Additional observations from a re-analysis of the deposited data

Results flagged for a closer look

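For 3 collagen genes the stage ratio went at least 2-fold one way in one cluster and at least 2-fold the other way in another, with the whole counting interval past 2-fold on each side. The differences between clusters were not tested, since each stage is 1 library. Col3a1 had log2 ratios of E11.5 over E10.5 of 1.503 in visceral mesenchyme-like cluster 6, 1.423 in neural crest or glia-like cluster 10, 2.536 in erythroid-like cluster 17 and 1.245 in hepatic stellate-like cluster 22, against -1.906 in neuron-like cluster 23. The value in cluster 17 rests on 25 and 50 UMIs, in red cells, which should lack the gene. There the level of Col3a1 was 8.77 and 50.9 CPM. Globin made up a median of 47.7% and then 69.6% of a cell's UMIs, so the non-globin total behind the CPM also differed. Whether this ratio is background or a change of expression was not tested. Col18a1 had a log2 ratio of 2.241 in nephric epithelium-like cluster 13 and -1.546 in hepatic stellate-like cluster 22. Col9a1 had 2.251 in endothelial-like cluster 31, from 8.85 to 42.1 CPM, against -4.205 in visceral mesenchyme-like cluster 6 and -1.951 in neuron-like cluster 23. In the whole visceral mesenchyme-like class, clusters 6 and 18 together, the log2 ratio of Col9a1 was -0.24, so the low value belongs to cluster 6 alone, where E11.5 gave 5 UMIs in 99 cells.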

How the results depend on the processing

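Of 188 alternative values over 20 results, 131 stayed within the counting interval of the value reported or, for counts, within 1.5 times, 55 moved and 2 reversed; intervals cover counting error only, so small moves are flagged in deep sets. The reversals were the endothelial-like type IV sum, a log2 ratio of 0.41 that was -0.15 as a mean over cells, and Col18a1 in hepatic stellate-like cells, -1.55 that was 0.34 at Leiden resolution 0.5. With a minimum of 2000 UMIs, the fibrillar log2 ratios were 0.80 in stellate-like, 0.54 in smooth muscle or mural-like and 1.70 in visceral mesenchyme-like cells (0.93, 0.81 and 1.78 as reported). With at most 5% mitochondrial UMIs, the whole-library collagen ratio was 0.64 (0.61 as reported), the endothelial-like type IV ratio 0.92, the smooth muscle or mural-like 0.54 and visceral mesenchyme-like fibrillar ratios 1.94, and the log2 ratio of Col1a2 to Col1a1 in neural crest or glia-like cells 4.12 (4.47 as reported). With doublets kept, these were 0.59 for the library, 0.57 for smooth muscle or mural-like and 2.91 for the type I chains, and 7 members were 2-fold higher in neural crest or glia-like cells (12 as reported). At Leiden resolution 0.5 the stellate-like fibrillar ratio was 1.38, the smooth muscle or mural-like 0.84, and 17 members were higher in stellate-like cells (10 as reported). At resolution 2.0 the smooth muscle or mural-like ratio was 0.63 and the type I chains 4.13. With collagen genes kept in the clustering, the ratios were 1.24 in stellate-like, 0.58 in smooth muscle or mural-like and 1.94 in visceral mesenchyme-like cells. With cells gated on marker UMIs they were 1.14, 0.32 and 1.85, with 0.46 for the endothelial-like type IV sum and 7.85 for the type I chains. As a mean over cells they were 1.18, 0.90 and 1.73, with 5.12 for the type I chains. Of 109 alternative values over 11 single-gene stage ratios, 10 moved by more than 1.5-fold, and the cause was not tested. No visceral mesenchyme-like class was named at resolution 0.5, and the thinned Col14a1 value in stellate-like cells could not be given because no UMI was left at E10.5. No paired analysis was possible because each stage has 1 library and no test was made.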

Other observations

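Other members had narrow patterns outside the comparisons above. Col9a3 in neural crest or glia-like cluster 10 was at 49.5 and then 67.9 CPM, while Col9a1, with which it forms type IX trimers, was at 11.1 and 6.92 CPM, a ratio of 4.45 (3.45 to 5.80) and 9.81 (6.98 to 14.2). In the notochord or floor plate-like cluster 37 the same ratio was 0.18. In neuron-like cluster 23 at E10.5, which is led by the adrenergic genes Dbh and Th, Col9a3 was the highest collagen at 82.0 CPM (69.8 to 95.7). Erythroid-like cluster 5 at E11.5 had Col5a1 at 14.7 CPM from 273 UMIs, above Col5a2 at 1.51 CPM.

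In nephric epithelium-like cells, of clusters 13 and 32, Col1a2 was at 15.3 and 109 CPM (2.83, 2.54 to 3.14) and Col14a1 at 1.55 and 25.6 CPM (4.04), while within cluster 13 alone Col1a2 was at 15.3 and 26.4 CPM. All 146 cells of cluster 32 are from the E11.5 library, and Col1a2 was at 188 CPM (168 to 210) in them. Of its 12 nephric epithelium markers, 5 reached 20 CPM and Cdh1 was at 0, whereas 7 of 12 body wall or limb mesenchyme markers reached 20 CPM. The 2 lists summed to 863 and 554 CPM. The epithelial name of cluster 32 is therefore doubtful, and the class values may not be those of epithelium alone.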
